A study of Mus musculus with 10 samples.

Results

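The antigen presentation genes described here are the 37 genes, of 20579 in the deposited table, whose symbol starts with H2- or is B2m, Cd74, Tap1, Tap2, Tapbp, Ciita, Nlrc5, Psmb8, Psmb9, Psmb10, Erap1 or Cd1d1. H2 is the mouse major histocompatibility complex (MHC). By role they comprise 3 genes of classical class I molecules, 17 non-classical class I genes, 4 peptide loading genes, 3 immunoproteasome subunits, 7 class II genes with Cd74 among them, and 2 regulators. The remaining gene, H2-Ke6, carries the prefix for its place in the complex and is no antigen-presenting molecule. Of the non-classical set, H2-T-ps is annotated as an unprocessed pseudogene, H2-K2 as a transcribed unprocessed pseudogene, and H2-Bl and H2-T10 as polymorphic pseudogenes.

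MHC class I molecules pair a heavy chain with beta-2-microglobulin (B2m) and show peptides from inside the cell to CD8 T cells. The peptides are cut by the proteasome, carried into the endoplasmic reticulum by the Tap1 and Tap2 transporter, trimmed by Erap1 and loaded with the help of tapasin (Tapbp). Class II molecules show peptides taken up from outside to CD4 T cells, use the invariant chain Cd74 and the H2-DM chaperone, and are known mainly from dendritic cells, macrophages and B cells, although intestinal epithelium can make them after interferon-gamma. Ciita is the co-activator of the class II genes, and Nlrc5 is its class I counterpart.

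The 10 libraries came from the intestines of mouse embryos at E18.5, 5 labelled p57KO and 5 labelled p57WT. p57 is a brake on cyclin-dependent kinases, made from Cdkn1c. All 10 libraries came from cells sorted for green fluorescent protein made under the Hopx promoter, so both genotypes carried that reporter, and all are labelled with the strain C57BL6/J / 129S4. The sources used here do not give the knockout allele, the sex of the embryos or whether the wild types were littermates, and the sort admits any cell in which the Hopx promoter is active. Each label also carries a number of unstated meaning. Number 607 marks p57KO 1, p57KO 2 and p57WT 1, number 608 marks p57KO 3 to 5, and number 740 marks p57WT 2 to 5, so number and genotype are nearly confounded.

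Total counts per library ranged from 8037887 to 26809231, and 3 counts, the floor used for a gene with no reads, equalled 0.105 to 0.392 CPM. CPM values here are counts set to a common library size by TMM, edgeR's trimmed-mean scaling. Cdkn1c averaged 0.840 ± 0.764 CPM in p57KO and 230 ± 129 CPM in p57WT (SD, n = 5 each), and Hopx averaged 151 ± 30.6 CPM in p57KO and 71.3 ± 6.73 CPM in p57WT. Transcripts that mark particular cell types moved with genotype. The 9 listed pan-leukocyte markers summed to 125 to 5006 CPM in p57KO and 15.0 to 101 CPM in p57WT, and all 8 that were tested were called higher. The 18 epithelial markers summed to 9449 to 18040 CPM in p57KO and 3252 to 7811 CPM in p57WT, with 14 called higher. All 10 smooth muscle markers were called lower. Over all genes tested by edgeR, 19.3% were called higher and 17.2% lower. These are bulk samples, so more cells of a type and more RNA per cell cannot be told apart, and the part of cell content in the results below was not tested.

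Promoter sequences are shown for 5 genes because the class I genes and the class II genes share sequence elements there. Each window, taken from RefSeq on build GRCm38.p6, runs from 250 bases before the start site to 50 bases after it and is written 5′ to 3′ on the gene's strand. Capitals mark 4 motifs searched on both strands, which did not overlap in these windows: ATTGG (the Y box, read CCAAT on the other strand), CTNGCAAC (the core of the X box), GAANNGAAA (an interferon-type element) and GGGATTCCC (a kappa B site).
H2-K1, chr17:34000298-34000597, minus strand: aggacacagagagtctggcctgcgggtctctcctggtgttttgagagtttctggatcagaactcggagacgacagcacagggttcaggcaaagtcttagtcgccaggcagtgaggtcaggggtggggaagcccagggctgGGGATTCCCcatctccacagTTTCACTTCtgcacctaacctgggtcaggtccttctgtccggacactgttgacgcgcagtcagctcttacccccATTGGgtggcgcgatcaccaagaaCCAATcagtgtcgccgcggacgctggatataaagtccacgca
H2-D1, chr17:35262844-35263143, plus strand: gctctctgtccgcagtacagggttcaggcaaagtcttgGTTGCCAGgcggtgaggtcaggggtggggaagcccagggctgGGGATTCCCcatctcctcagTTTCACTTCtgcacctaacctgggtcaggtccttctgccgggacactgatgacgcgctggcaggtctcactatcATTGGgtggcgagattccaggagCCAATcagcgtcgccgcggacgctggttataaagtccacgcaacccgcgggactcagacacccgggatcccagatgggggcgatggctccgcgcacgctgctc
B2m, chr2:122147437-122147736, plus strand: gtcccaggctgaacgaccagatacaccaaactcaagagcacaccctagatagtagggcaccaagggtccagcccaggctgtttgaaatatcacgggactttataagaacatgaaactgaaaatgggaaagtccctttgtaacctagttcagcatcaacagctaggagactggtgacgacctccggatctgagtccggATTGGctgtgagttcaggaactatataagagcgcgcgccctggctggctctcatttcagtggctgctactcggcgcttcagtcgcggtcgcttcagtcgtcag
Tap1, chr17:34187306-34187605, plus strand: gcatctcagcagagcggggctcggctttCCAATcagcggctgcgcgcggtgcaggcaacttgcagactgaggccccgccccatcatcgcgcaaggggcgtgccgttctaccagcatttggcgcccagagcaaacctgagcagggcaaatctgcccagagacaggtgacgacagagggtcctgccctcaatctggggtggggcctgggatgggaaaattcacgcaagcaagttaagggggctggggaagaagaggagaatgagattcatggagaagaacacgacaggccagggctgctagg
H2-Aa, chr17:34287774-34288073, minus strand: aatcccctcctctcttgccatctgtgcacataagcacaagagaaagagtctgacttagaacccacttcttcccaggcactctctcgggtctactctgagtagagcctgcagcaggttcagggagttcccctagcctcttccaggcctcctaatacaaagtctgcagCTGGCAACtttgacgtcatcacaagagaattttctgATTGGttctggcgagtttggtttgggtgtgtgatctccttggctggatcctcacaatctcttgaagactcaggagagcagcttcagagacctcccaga

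Of the 37 genes, 26 had a RefSeq promoter window and 11 did not. The Y box letters were found in 80.8% of the 26 genes and in 41.1% of all 27025 genes with such a window. The interferon-type element was found in 30.8% of them, against 8.68% of all genes. The kappa B letters stood in 4 of them, H2-D1, H2-K1, H2-Q6 and H2-Q7, which is 15.4% against 0.414% of all genes. The X box core letters stood in H2-Aa, H2-D1 and H2-Eb1, which is 11.5% against 3.97%. They began at -84 from the start site in H2-Aa and -94 in H2-Eb1. In H2-D1 they lay apart, at -212 and on the other strand, so that match may not be an X box. H2-K1 and H2-D1 thus share the kappa B site, the interferon-type element and a pair of Y boxes in the same order. Of the 4 letter strings, the B2m window holds only a single Y box. Other spellings of the elements were not searched, so the interferon-type element and the kappa B site cannot be called absent from B2m. These genes are related in sequence, and a match to letters is no measure of binding.

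As a group, the antigen presentation genes were higher in p57KO cells. In edgeR's quasi-likelihood test, 28 of the 37 passed the expression filter, and of these 28, 17 were called higher at an adjusted p below 0.05 over all 16710 genes tested, 0 were called lower and 11 were not called. Across all genes tested, 36.5% were called, 19.3% higher and 17.2% lower. The median log2 fold change was 1.67 over the 28 genes and 0.08 over all genes tested. At an unadjusted p below 0.05 the number called lower was also 0, limma voom called 17 of the 28 higher and 0 lower (18% and 20.2% of all genes, 38.3% in all), and DESeq2 called 22 of the 37 higher and 1, Ciita, lower (20.9% and 17.5%, 38.3% in all). The higher calls comprised all 3 classical class I genes, 7 of 13 tested non-classical genes, 1 of 4 loading genes, all 3 immunoproteasome subunits, 3 of 4 tested class II genes and not the 1 tested regulator, Nlrc5. For 10 of the 28 tested genes every p57KO library lay above every p57WT library, and for 0 below; among all genes tested the shares were 11.5% and 12.7%. Of the genes that were not tested, H2-DMb2 lay above in every knockout and Ciita below. The filter removed 9 genes, namely H2-M2, H2-Q6, H2-T-ps, H2-T10, H2-Aa, H2-DMb1, H2-DMb2, H2-Ke6 and Ciita. A gene that passed only through its level in 1 genotype was favoured for a call. Of the 17 called, Cd74, H2-K2, H2-Ab1 and H2-Q1 had the fewest pooled counts in p57WT, at 43, 45, 58 and 58. Without the filter 19 of the 37 were called higher, against 17.2% of all 20579 genes (14.3% lower, 31.5% in all).

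The count depended on what the libraries were set against. With library sizes fixed by the 18 epithelial markers, the median log2 fold change was -1.39 over all genes and 0.25 over the 28 genes, and only H2-Q1 and H2-Q2 were called higher while 6 genes were called lower, where 67.4% of all genes were called, 2.22% higher and 65.1% lower. In the comparison within label number 607, p57KO 1 and 2 against p57WT 1, edgeR called 0 of the 28 higher and 1, H2-Bl, lower (6 were higher at an unadjusted p below 0.05), where 6.04% of all genes were called, 1.1% higher and 4.94% lower; the lone p57WT library was assumed to vary like the others. Their median log2 fold change within 607 was 1.24, against 0.15 for all genes. Ribosomal RNA moved with genotype too: it took 9.47% of the counts in 1 of 5 p57KO libraries and 14.9% to 17% in 4 of 5 p57WT libraries, and 0.0301% to 0.435% in the others. With the class of ribosomal RNA share, above or below 5%, as a term, 6 of the 28 were called higher, against 7.22% of all genes (10.5% lower, 17.7% in all). Those 6 were H2-K1, H2-Q1, H2-Q2, H2-T3, H2-K2 and Erap1. With that term the median log2 fold change was 1.42 over the 28 genes and 0.05 over all genes. The 11 that lost their call with that term, at edgeR adjusted p from 0.0612 to 0.412, were B2m, H2-D1, H2-M3, H2-Q10, H2-T23, Cd74, H2-Ab1, H2-DMa, Psmb8, Psmb9 and Psmb10. Without p57KO 1 and p57KO 2, 19 genes were called higher, against 20.6% of all genes (19.1% lower, 39.7% in all). With the replicate number as a block, 14 were called higher, against 17.1% of all genes (17.6% lower, 34.7% in all).

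**Figure D1:**
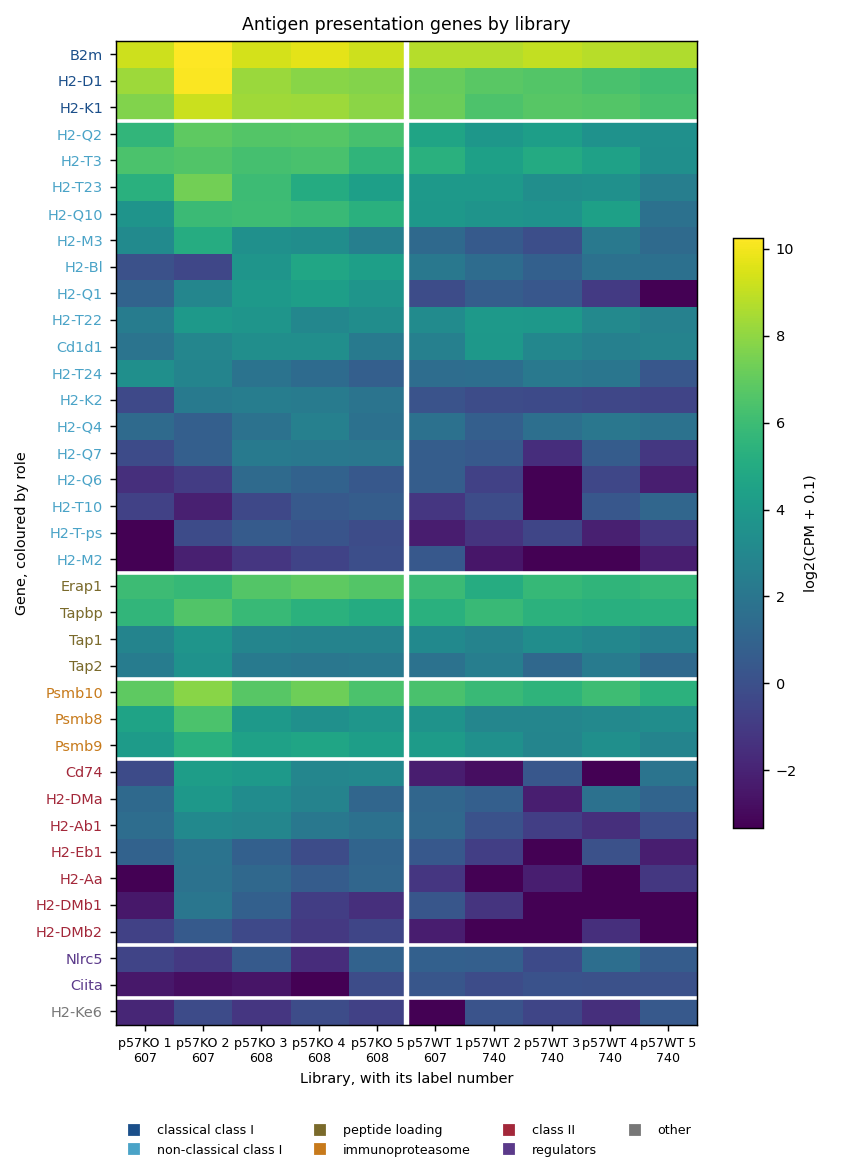
Level of each of the 37 genes in each library, as log2(CPM + 0.1), with the genes grouped by role and each library's label number under its name. The classical class I genes are the brightest rows and are brighter in the 5 p57KO than in the 5 p57WT libraries, most class II genes are dimmer in p57WT, and Ciita is dimmer in p57KO.

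**Figure D2:**
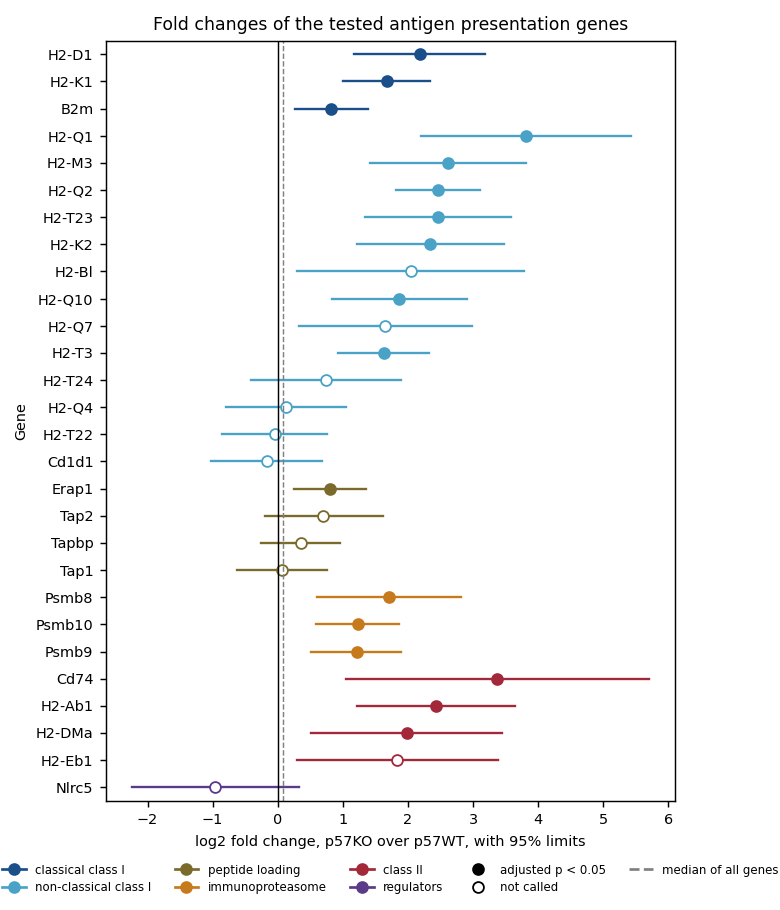
The log2 fold change of p57KO over p57WT for the 28 tested genes, with 95% limits from edgeR, filled where called and open where not. The dashed line is the median of all genes tested, 0.08, and 17 filled points lie to its right while Tap1, H2-Q4, H2-T22 and Cd1d1 lie close to it.

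The heavy chains of classical class I rose more than their partner B2m. H2-K1 (chr17:33996017-34000347, 2938 exonic bases) was at 205, 579, 325, 313 and 240.1 CPM in p57KO 1 to 5, and at 149.6, 86.7, 107, 97.3 and 78.0 CPM in p57WT 1 to 5. The groups did not overlap, with p57KO 2 highest and p57WT 1 the highest of the wild types. In edgeR the log2 fold change was 1.68 (SE 0.31, adjusted p = 0.0017). It was 0.24 with the epithelial scaling, where the call was lost, and 1.39 within label number 607, where it was lost too.

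H2-D1 (chr17:35262730-35267499, 2579 exonic bases) was at 306, 1178, 301, 234 and 212 CPM in p57KO 1 to 5, and at 135, 110.2, 99.1, 81.2 and 68.5 CPM in p57WT 1 to 5. Every p57KO library lay above every p57WT library, and p57KO 2 stood far above the other p57KO libraries. Its log2 fold change was 2.18 (SE 0.47, edgeR adjusted p = 0.0038), and without p57KO 2 it was 1.43 (adjusted p = 0.0021). It was 0.62 and not called with the epithelial scaling, 2.46 and not called within label number 607, and 1.67 and not called with the ribosomal RNA class as a term (adjusted p = 0.0798). Few 100-base windows of H2-D1 (3.59%) and H2-K1 (0.957%) occur in another gene's transcripts, among them those of H2-Q1, H2-Q10 and Gm7030, so a small share of their reads could be misassigned.

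B2m (chr2:122147686-122153083, 860 exonic bases) was at 599, 1225, 660.2, 838 and 596 CPM in p57KO 1 to 5, and at 437, 427, 518, 438 and 399 CPM in p57WT 1 to 5. The groups did not overlap, and the p57WT libraries lay close together. The estimate was a log2 fold change of 0.82 (SE 0.26, edgeR adjusted p = 0.0259), but it was -0.69 with the epithelial scaling. The call was lost without p57KO 2 (adjusted p = 0.0572), p57KO 4 (0.0525), p57WT 1 (0.0524), p57WT 4 (0.0615) or p57WT 5 (0.0631), with the replicate number as a block (0.0536), and with the ribosomal RNA class as a term (0.173).

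The ratio of heavy chain to B2m does not depend on the scaling between libraries. H2-K1 over B2m was 0.342, 0.472, 0.492, 0.373 and 0.403 in p57KO 1 to 5, against 0.342, 0.203, 0.207, 0.222 and 0.195 in p57WT 1 to 5. The lone p57WT library of number 607 matched p57KO 1 of the same number and stood above the other wild types. The mean was 0.416 ± 0.0642 in p57KO and 0.234 ± 0.0614 in p57WT (SD, n = 5 each; exact two-sided permutation p = 0.0159, 0.037 adjusted over the 7 ratios compared). H2-D1 over B2m averaged 0.513 ± 0.266 in p57KO and 0.223 ± 0.0584 in p57WT (exact two-sided permutation p = 0.0159, adjusted 0.037); p57KO 4, at 0.279, lay below p57WT 1, at 0.309. The smallest p that 5 against 5 libraries allow is 0.00794, and the 7 ratios were picked after values were seen.

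Per kilobase of exon, B2m was the most abundant of the 37 genes in both genotypes, with mean levels of 911 ± 309 CPM per kb in p57KO and 516 ± 51.7 in p57WT. H2-D1 followed with 173 ± 159 CPM per kb in p57KO and 38.3 ± 9.99 in p57WT, H2-K1 with 113 ± 49.9 in p57KO and 35.3 ± 9.48 in p57WT, and Psmb10 with 81.2 ± 33.6 in p57KO and 34.7 ± 9.68 in p57WT. The ranges of mean ± SD of H2-D1, H2-K1 and Psmb10 overlapped in each genotype. Their order within each library was not tested. H2-Q2 came next in p57KO with 41.1 ± 12.2 CPM per kb, against 7.47 ± 2.49 in p57WT.

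**Figure D3:**
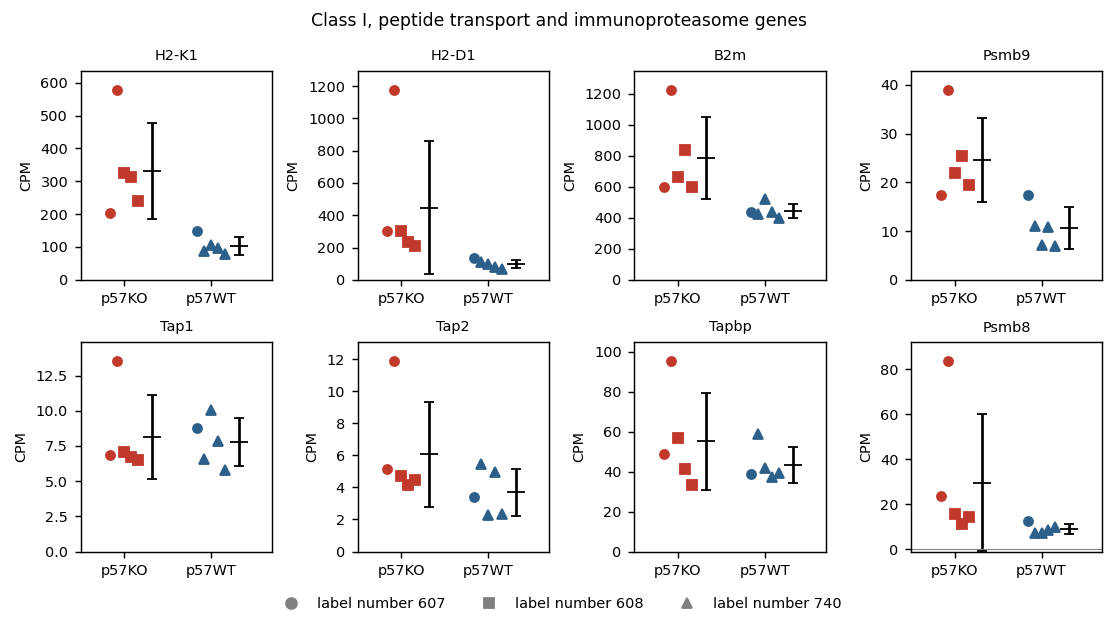
CPM of 8 genes in each library, with marker shapes for the label number and the bar giving mean ± SD over 5 libraries. H2-K1, H2-D1 and B2m do not overlap between p57KO and p57WT, Psmb9 and Psmb8 overlap only slightly, and Tap1, Tap2 and Tapbp overlap widely.

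Among the 13 tested non-classical class I genes, 7 rose. They were H2-Q1, H2-M3, H2-Q2, H2-T23, H2-K2, H2-Q10 and H2-T3, with log2 fold changes from 1.63 to 3.81 and edgeR adjusted p from 0.000286 to 0.00952. The 17 listed genes together summed to 220.4, 523, 391, 371 and 259 CPM in p57KO 1 to 5, and to 129, 108, 109, 101 and 57.5 CPM in p57WT 1 to 5. The other 6 tested genes were not called: H2-Bl, H2-Q7, H2-T24, H2-Q4, H2-T22 and Cd1d1.

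H2-Q2, a Qa-region gene at chr17:35342242-35346762, had the smallest p of the 28 genes. It was at 48.7, 119, 99.8, 101 and 80.0 CPM in p57KO 1 to 5, and at 24.4, 14.5, 19.1, 12.2 and 11.3 CPM in p57WT 1 to 5. The groups were clearly apart, with p57KO 1 the lowest knockout and p57WT 1 the highest wild type. In edgeR the log2 fold change was 2.46 (SE 0.30, adjusted p = 0.000286), and 1.09 and still called with the epithelial scaling.

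H2-Q1, its neighbour at chr17:35320405-35325099, was at 1.89, 7.54, 15.5, 19.6 and 13.4 CPM in p57KO 1 to 5, and at 0.797, 1.502, 1.21, 0.392 and 0 CPM in p57WT 1 to 5. Every knockout library lay above every wild type, though p57KO 1 came within reach of p57WT 2. The log2 fold change of 3.81 (SE 0.75, edgeR adjusted p = 0.00242) was the largest of the 28 genes. It rests on few wild-type reads, with 1310 pooled counts in p57KO and 58 in p57WT. In p57WT 4 and p57WT 5 the gene was at or below the floor of 3 counts. Without the filter it was 3.90 (edgeR adjusted p = 0.0028). Of the 100-base windows of H2-Q1, 8.05% also occur in other genes, H2-Q2 and H2-D1 among them.

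H2-T3 encodes the thymus leukaemia antigen, a class I molecule known from mouse intestinal epithelium. It was at 84.1, 96.7, 76.4, 82.8 and 47.9 CPM in p57KO 1 to 5, and at 39.8, 20.6, 31.7, 22.1 and 10.9 CPM in p57WT 1 to 5. No library of one genotype reached the other, and p57KO 5 came nearest to p57WT 1. Its log2 fold change was 1.63 (SE 0.32, edgeR adjusted p = 0.00254), and 0.25 and not called with the epithelial scaling.

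H2-T23 encodes Qa-1, which presents leader peptides of other class I molecules to natural killer cell receptors. It was at 38.7, 165, 63.0, 33.1 and 20.5 CPM in p57KO 1 to 5, and at 15.4, 15.5, 10.4, 11.3 and 5.57 CPM in p57WT 1 to 5. The groups did not overlap, and p57KO 2 was the highest. The estimate was a log2 fold change of 2.46 (SE 0.52, edgeR adjusted p = 0.00347), 1.76 without p57KO 2, and 1.62 and not called with the ribosomal RNA class as a term (adjusted p = 0.106). H2-M3, which presents N-formylated peptides, averaged 13.8 ± 11.2 CPM in p57KO and 2.28 ± 1.34 CPM in p57WT (SD, n = 5 each; log2 fold change 2.62, SE 0.56, edgeR adjusted p = 0.00369). Without p57KO 2 its log2 fold change was 2.00, and with the ribosomal RNA class as a term its call was lost (adjusted p = 0.0754).

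H2-Q10, known in the adult mouse as a class I molecule secreted by the liver, averaged 47.5 ± 21.9 CPM in p57KO and 13.0 ± 6.52 CPM in p57WT (SD, n = 5 each; log2 fold change 1.87, SE 0.48, edgeR adjusted p = 0.00952). The groups overlapped through p57KO 1, at 12.8 CPM, and the call was lost with the ribosomal RNA class as a term (adjusted p = 0.0714). The pseudogene H2-K2 averaged 3.86 ± 1.87 CPM in p57KO and 0.758 ± 0.167 CPM in p57WT (edgeR adjusted p = 0.00488 with a log2 fold change of 2.34, SE 0.52), and p57KO 1, at 0.688 CPM, again lay within the wild types. H2-Q7, which encodes Qa-2, averaged 3.08 ± 1.75 CPM in p57KO and 0.964 ± 0.612 CPM in p57WT and was not called (log2 fold change 1.65, edgeR adjusted p = 0.0501). It was called without p57KO 1 (adjusted p = 0.018), without p57KO 2 (0.0465) and with DESeq2's size factors (0.0475), and 12% of its 100-base windows occur in other genes, H2-Q6 and H2-Q10 among them.

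H2-Bl divided the p57KO libraries by their label number. It was at 0.946 and 0.635 CPM in p57KO 1 and 2, at 13.2, 26.0 and 20.5 CPM in p57KO 3 to 5, and at 4.21, 2.65, 1.69, 3.27 and 3.08 CPM in p57WT 1 to 5. The knockouts of number 607 lay below every wild type, and those of number 608 lay above every wild type. Over all libraries it was not called (log2 fold change 2.04, SE 0.81, edgeR adjusted p = 0.0635). Within p57KO the log2 difference of number 608 over number 607 was 4.67 (SE 0.58, edgeR adjusted p = 0.00231), where 6.68% of all genes were called, 3.67% higher and 3.01% lower. The genotype difference was -2.43 within number 607 (adjusted p = 0.0435) and 2.80 without p57KO 1 and p57KO 2 (adjusted p = 0.000325), and it was called without p57KO 1 alone (2.34, adjusted p = 0.0193) or p57KO 2 alone (2.41, adjusted p = 0.0181). This contrast of label numbers was chosen after the values were seen.

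The remaining tested non-classical genes showed no call in either direction. Cd1d1, which presents lipids to natural killer T cells, was at 3.61, 7.54, 10.3, 10.5 and 4.70 CPM in p57KO 1 to 5, and at 6.03, 14.8, 7.74, 5.89 and 6.76 CPM in p57WT 1 to 5. Its libraries overlapped, and the log2 fold change was -0.17 (95% limits -1.02 to 0.68, edgeR adjusted p = 0.755). H2-T22, a ligand of some gamma-delta T cell receptors, had a log2 fold change of -0.05 (95% limits -0.86 to 0.76), H2-Q4 one of 0.13 (-0.79 to 1.05) and H2-T24 one of 0.74 (-0.41 to 1.90). Of the exonic bases, 1003 of 3414 in H2-T22 and 496 of 2596 in H2-Q4 overlap genes on the opposite strand. Cd1d1 and H2-T22 were called lower with the epithelial scaling, at -1.64 and -1.47, and so was H2-Q4, at -1.27. Of the genes that the filter removed, H2-Q6 had 147 pooled counts in p57KO and 32 in p57WT, H2-T-ps 94 in p57KO and 18 in p57WT, H2-T10 79 in p57KO and 50 in p57WT, and H2-M2 38 in p57KO and 14 in p57WT.

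Neither transporter gene nor tapasin was called. Tap1 (chr17:34187553-34197225) was at 6.88, 13.5, 7.07, 6.71 and 6.53 CPM in p57KO 1 to 5, and at 8.76, 6.56, 10.04, 7.85 and 5.81 CPM in p57WT 1 to 5. All knockouts other than p57KO 2 lay inside the wild-type range. In edgeR the log2 fold change was 0.06 (95% limits -0.62 to 0.75, adjusted p = 0.891), -0.18 without p57KO 2, -0.03 without p57WT 5, and -1.41 with a call with the epithelial scaling.

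Tap2 (chr17:34203527-34216321) was at 5.16, 11.9, 4.69, 4.14 and 4.44 CPM in p57KO 1 to 5, and at 3.41, 5.45, 2.30, 4.97 and 2.37 CPM in p57WT 1 to 5. The libraries overlapped, and p57KO 2 was again the highest. Of the 3781 exonic bases of Tap2, 698 overlap other genes on the opposite strand. Its log2 fold change was 0.70 (95% limits -0.20 to 1.61, edgeR adjusted p = 0.201), and -0.80 with the epithelial scaling.

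Tapasin's gene Tapbp was at 48.9, 95.2, 56.9, 41.3 and 33.3 CPM in p57KO 1 to 5, and at 39.0, 58.9, 41.6, 37.4 and 39.4 CPM in p57WT 1 to 5. The libraries overlapped widely. Of the 3628 exonic bases of Tapbp, 149 overlap Zbtb22 on the same strand and 904 overlap Gm19412 on the opposite strand, where reads could be misassigned. The estimate was a log2 fold change of 0.35 (95% limits -0.26 to 0.96, edgeR adjusted p = 0.346), and -1.20 with a call with the epithelial scaling. The upper limit for Tap1, 0.75, lies below the B2m estimate of 0.82, but the 95% limits of B2m, 0.26 to 1.38, overlap those of Tap1. The limits of Tap2 and Tapbp include the B2m estimate. A difference between Tap1 and B2m was not tested.

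Erap1, the aminopeptidase that trims peptides in the endoplasmic reticulum, was the loading gene that rose. It was at 63.9, 54.8, 97.4, 120.35 and 98.7 CPM in p57KO 1 to 5, and at 61.7, 34.3, 54.6, 47.4 and 51.9 CPM in p57WT 1 to 5. All knockouts but p57KO 2 lay above every wild type, p57KO 1 only just. Of the 7280 exonic bases of Erap1, 834 overlap Cast on the opposite strand. In edgeR the log2 fold change was 0.80 (SE 0.26, adjusted p = 0.0272), but -0.57 with the epithelial scaling and -0.06 within number 607. The call was lost without p57KO 3 (adjusted p = 0.0545), p57KO 4 (0.0701), p57WT 2 (0.0573), p57WT 4 (0.0642) or p57WT 5 (0.0534).

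All 3 immunoproteasome subunits, which replace the standard catalytic subunits after interferon-gamma and in leukocytes, rose. Psmb10 (chr8:105935735-105938444) was at 117, 230.45, 107, 154 and 84.3 CPM in p57KO 1 to 5, and at 82.9, 58.5, 44.8, 66.5 and 42.8 CPM in p57WT 1 to 5. The groups did not overlap, though p57KO 5 stood close to p57WT 1. Its log2 fold change was 1.23 (SE 0.30, edgeR adjusted p = 0.00721), but -0.24 with the epithelial scaling, and not called with the ribosomal RNA class as a term (adjusted p = 0.115).

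Psmb9 (chr17:34181987-34187764) was at 17.4, 39.0, 22.0, 25.5 and 19.4 CPM in p57KO 1 to 5, and at 17.4, 11.1, 7.14, 10.9 and 6.88 CPM in p57WT 1 to 5. The groups touched only at p57KO 1 and p57WT 1, both of number 607. The estimate was a log2 fold change of 1.21 (SE 0.32, edgeR adjusted p = 0.0119), but -0.18 with the epithelial scaling, and not called with the ribosomal RNA class as a term (adjusted p = 0.0984).

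Psmb8 (chr17:34197721-34201454) was at 23.5, 83.6, 15.5, 11.2 and 14.2 CPM in p57KO 1 to 5, and at 12.4, 7.35, 7.38, 8.37 and 9.84 CPM in p57WT 1 to 5. p57KO 4 lay below p57WT 1, and p57KO 2 was far above every other library. Of the 3381 exonic bases of Psmb8, 498 overlap Gm20496 on the opposite strand. In edgeR the log2 fold change was 1.71 (SE 0.51, adjusted p = 0.0199), and 0.82 without p57KO 2 (adjusted p = 0.0455). Without p57KO 1 and p57KO 2 it was 0.64 and not called (adjusted p = 0.0827), and within p57KO the log2 difference of number 608 over number 607 was -1.98 (SE 0.45, adjusted p = 0.0253). The call was also lost in limma voom (adjusted p = 0.0681), with the replicate number as a block (0.0533) and with the ribosomal RNA class as a term (0.227). Pan-leukocyte markers were highest in the same library, p57KO 2, at 5006 CPM.

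Set against their standard counterparts within a library, the immunoproteasome subunits gave no ratio that passed. Psmb9 over Psmb6 averaged 0.0437 ± 0.00896 in p57KO and 0.0267 ± 0.0104 in p57WT (SD, n = 5 each; exact two-sided permutation p = 0.0317, 0.0556 adjusted over the 7 ratios). Psmb10 over Psmb7 averaged 1.83 ± 1.21 in p57KO and 0.921 ± 0.202 in p57WT (exact permutation p = 0.151, adjusted 0.211). Psmb8 over Psmb5 averaged 0.273 ± 0.190 in p57KO and 0.192 ± 0.0720 in p57WT (exact permutation p = 0.611, adjusted 0.611). Most subunits of the standard proteasome and its activators were themselves higher, as described among the companion genes.

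Psmb9 and Tap1 lie head to head on opposite strands. Their RefSeq start sites are 226 bases apart, their promoter windows share 275 bases, and 212 exonic bases overlap. Even so, Psmb9 over Tap1 was 2.53, 2.89, 3.10, 3.79 and 2.97 in p57KO 1 to 5, against 1.99, 1.69, 0.711, 1.38 and 1.18 in p57WT 1 to 5. No knockout reached a wild type, also within number 607. The mean was 3.06 ± 0.465 in p57KO and 1.39 ± 0.487 in p57WT (SD, n = 5 each; exact two-sided permutation p = 0.00794, the smallest possible, and 0.037 adjusted over the 7 ratios). Psmb8 over Tap2, the next pair along the chromosome, averaged 4.16 ± 1.75 in p57KO and 2.81 ± 1.23 in p57WT (exact permutation p = 0.206, adjusted 0.241).

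**Figure D4:**
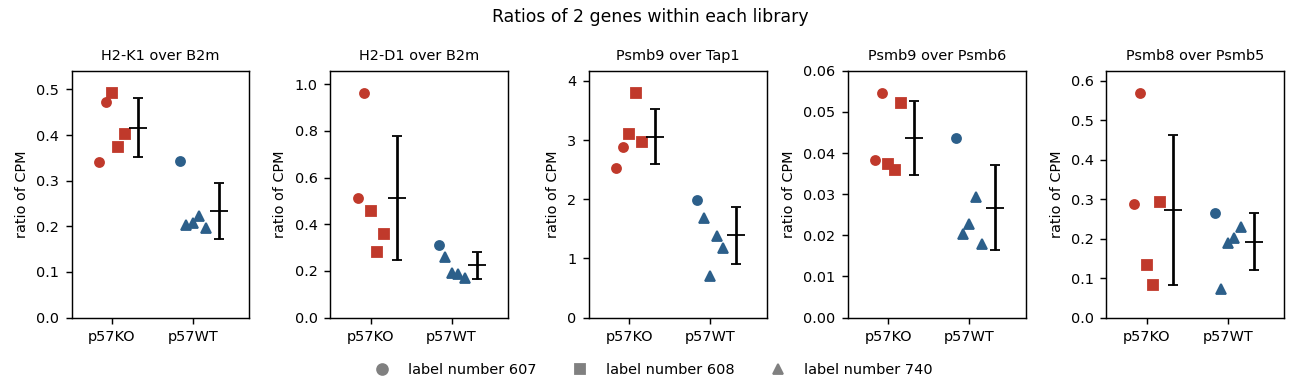
Ratios of the CPM of 2 genes within each library, with marker shapes for the label number and the bar giving mean ± SD over 5 libraries. H2-K1 over B2m, H2-D1 over B2m and Psmb9 over Tap1 are higher in p57KO, and only Psmb9 over Tap1 separates every p57KO from every p57WT library; the 2 ratios to standard subunits overlap.

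Class II transcripts were scarce in both genotypes and more abundant in p57KO. The 6 H2 class II genes and Cd74 summed to 8.43, 54.2, 39.0, 21.5 and 18.54 CPM in p57KO 1 to 5, and to 7.40, 3.44, 1.94, 4.71 and 6.99 CPM in p57WT 1 to 5. p57KO 1 lay just above the highest wild type, and the other knockouts lay well above. Of the 4 genes that could be tested, Cd74, H2-Ab1 and H2-DMa rose and H2-Eb1 was not called.

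Cd74, the invariant chain, was at 0.774, 18.4, 15.7, 7.48 and 8.01 CPM in p57KO 1 to 5, and at 0.114, 0.0395, 1.21, 0 and 3.68 CPM in p57WT 1 to 5. p57KO 1 fell among the wild types, and the other knockouts lay above them. Its log2 fold change was 3.37 (SE 1.08, edgeR adjusted p = 0.0267). The call was lost without p57KO 2 (3.08, adjusted p = 0.0546), p57WT 1 (0.0567), p57WT 3 (0.054) or p57WT 4 (0.0535), and with the ribosomal RNA class as a term (0.0874). Leaving out each library in turn gave log2 fold changes from 3.01 to 5.03, the highest without p57WT 5.

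H2-Ab1, the beta chain of the I-A molecule, was at 2.84, 8.51, 7.35, 4.30 and 3.31 CPM in p57KO 1 to 5, and at 2.28, 0.988, 0.484, 0.262 and 0.830 CPM in p57WT 1 to 5. The groups did not overlap, and p57WT 1 was closest to the knockouts. The estimate was a log2 fold change of 2.43 (SE 0.56, edgeR adjusted p = 0.00578), 1.32 and not called within number 607, and not called with the ribosomal RNA class as a term (adjusted p = 0.0612).

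H2-Aa, the alpha chain of the same molecule, was under the filter. It was at 0, 3.35, 2.28, 1.46 and 2.18 CPM in p57KO 1 to 5, and at 0.341, 0, 0.121, 0 and 0.356 CPM in p57WT 1 to 5. It had 207 pooled counts in p57KO and 7 in p57WT, a depth-adjusted ratio of 17.0 (exact 95% interval 8.13 to 42.9, counting error only). p57KO 1 held no read of it although it held reads of H2-Ab1, and without the filter the gene was called higher.

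H2-Eb1, the beta chain of I-E, was at 1.81, 3.52, 1.72, 0.805 and 2.00 CPM in p57KO 1 to 5, and at 1.25, 0.474, 0, 0.916 and 0.119 CPM in p57WT 1 to 5. p57KO 4 lay below p57WT 1 and p57WT 4. In edgeR the log2 fold change was 1.83 (SE 0.72, adjusted p = 0.0602), and it was called without p57WT 1 (2.35, adjusted p = 0.0402), in DESeq2 (adjusted p = 0.0271) and in limma voom (0.0373).

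Of the genes for the peptide exchange chaperone H2-DM, H2-DMa could be tested and rose. In H2-DMa, 360 of the 3448 exonic bases overlap Brd2 on the opposite strand. H2-DMa averaged 7.20 ± 5.42 CPM in p57KO and 1.84 ± 1.14 CPM in p57WT (SD, n = 5 each; log2 fold change 1.98, SE 0.68, edgeR adjusted p = 0.0365). That call was lost without p57KO 2 (adjusted p = 0.0976), p57KO 3 (0.0676), p57KO 4 (0.0571), p57WT 1 (0.0611), p57WT 2 (0.0682), p57WT 3 (0.0541) or p57WT 5 (0.0665), with the replicate number as a block (0.105), and with the ribosomal RNA class as a term (0.412). H2-DMb1 had 157 pooled counts in p57KO and 18 in p57WT, a ratio of 5.03 (exact 95% interval 3.08 to 8.71), and H2-DMb2 had 74 in p57KO and 3 in p57WT, a ratio of 14.2 (4.68 to 70.5). For H2-DMb1 the libraries overlapped: 93 of the 157 counts came from p57KO 2, and p57KO 1, 4 and 5, at 0.0860, 0.460 and 0.261 CPM, lay below p57WT 1, at 1.14 CPM. Both genes were under the filter, and 11.3% of the 100-base windows of H2-DMb1 occur in H2-DMb2.

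Markers of leukocytes, like the class II genes, were higher in p57KO, but the knockouts ranked differently by each. p57KO 1 had the lowest class II sum of the 5 knockouts, 8.43 CPM, but a higher pan-leukocyte sum than p57KO 3 to 5. Pan-leukocyte markers summed to 787, 5006, 367, 237 and 125 CPM in p57KO 1 to 5, and to 35.9, 15.0, 27.2, 25.1 and 101 CPM in p57WT 1 to 5. The sum of class II genes and Cd74 over that of pan-leukocyte markers was 0.0107, 0.0108, 0.106, 0.0908 and 0.148 in p57KO 1 to 5, against 0.206, 0.230, 0.0711, 0.188 and 0.0692 in p57WT 1 to 5. These ratios averaged 0.0733 in p57KO and 0.153 in p57WT and were not tested, and the knockouts of number 607 were the lowest of the 10 libraries.

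By lineage, the markers did not move together. The 13 listed macrophage and monocyte markers summed to 218 to 2884 CPM in p57KO and 35.3 to 164 CPM in p57WT. Of these 13, 9 were called higher, against 19.3% of all genes tested. The 7 listed neutrophil markers summed to 21.7 to 4857 CPM in p57KO and 2.09 to 12.0 CPM in p57WT. The 6 listed dendritic cell markers of 12 fixed summed to 2.53 to 9.11 CPM in p57KO and 3.27 to 10.7 CPM in p57WT, and neither tested marker, Zbtb46 (log2 fold change -1.44, edgeR adjusted p = 0.084) or Itgae (-0.18, 0.768), was called. Zbtb46, with the highest mean of the 6 in both genotypes, averaged 1.64 CPM in p57KO and 4.38 CPM in p57WT, so it weighs most on the sum. The untested dendritic cell markers were near the floor and went both ways. Itgax averaged 0.590 ± 0.329 CPM in p57KO and 0.243 ± 0.227 CPM in p57WT. Depth-adjusted ratios of pooled counts were 5.64 for Clec10a (88 counts in p57KO, 9 in p57WT) and 3.34 for Itgax (58 and 10). They were 1.35 for Xcr1 (77 and 33) and 0.545 for Batf3 (35 and 37). The 5 listed B cell markers summed to 44.0 to 75.7 CPM in p57KO and 17.9 to 54.7 CPM in p57WT, and nearly all of that was Blnk, the 1 tested, which averaged 50.7 ± 12.9 CPM over the p57KO and 34.5 ± 15.4 CPM over the p57WT libraries and was not called. The other 4, Cd22, Vpreb1, Cd79a and Cd79b, averaged at most 1.15 CPM in p57KO and 0.643 CPM in p57WT. Markers that the table does not list were not analysed here. The part of any of these cells in the class II result was not tested.

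**Figure D5:**
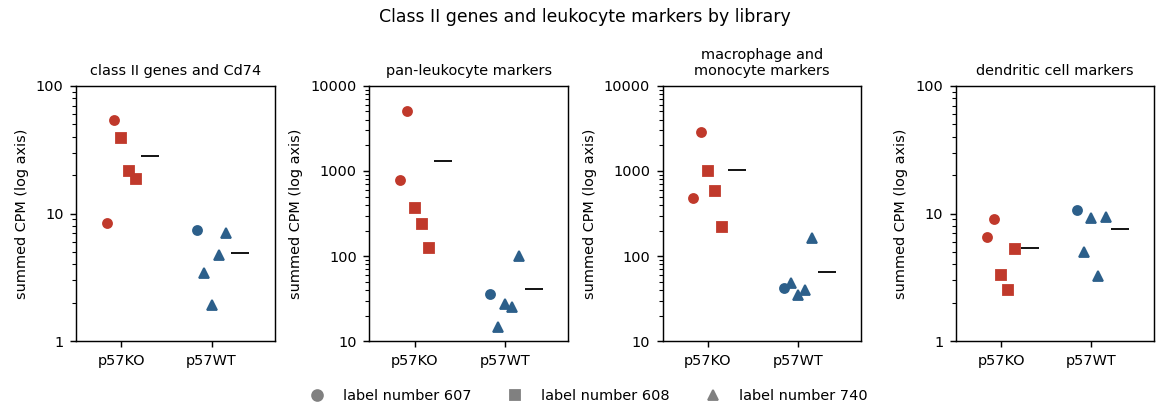
Summed CPM per library, on log axes, of the 7 class II genes with Cd74 and of 3 lists of leukocyte markers; shapes give the label number and the short line the mean. The first 3 sums are higher in p57KO libraries, with p57KO 2 the highest of each, while dendritic cell markers overlap between p57KO and p57WT at 2.53 to 10.7 CPM.

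Neither regulator was called higher. Nlrc5 was at 0.602, 0.381, 1.33, 0.230 and 1.83 CPM in p57KO 1 to 5, and at 1.71, 1.66, 0.726, 2.88 and 1.42 CPM in p57WT 1 to 5. The libraries overlapped, and 3 of the 5 knockouts lay below every wild type. Its log2 fold change was -0.96 (95% limits -2.24 to 0.33, edgeR adjusted p = 0.221), and -2.19 with a call with the epithelial scaling.

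Ciita was lower in every p57KO library than in any p57WT library. It was at 0.0860, 0.0424, 0.0700, 0 and 0.783 CPM in p57KO 1 to 5, and at 1.14, 0.790, 0.968, 0.916 and 0.948 CPM in p57WT 1 to 5. p57KO 5 stood just under the lowest wild type, and the other knockouts held fewer than the 3 counts of the floor. It had 13 pooled counts in p57KO and 53 in p57WT, a depth-adjusted ratio of 0.141 (exact 95% interval 0.0707 to 0.263, counting error only). The gene did not pass the filter of the edgeR test. It was called lower by that test when p57KO 5 was left out and by DESeq2 over all libraries, and the authors' deposited table gives a log2 fold change of -2.42 (SE 0.967, adjusted p = 0.0361). Some 329 of its 9535 exonic bases overlap Dexi on the opposite strand, and the sources used here do not give the strand setting of the counting. Whether reads of Dexi in that stretch were counted for Ciita is therefore not known. Dexi averaged 11.2 ± 6.77 CPM in p57KO and 24.1 ± 7.79 CPM in p57WT (SD, n = 5 each, with a log2 fold change of -1.11, SE 0.44, edgeR adjusted p = 0.0622).

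H2-Ke6 had 57 pooled counts in p57KO and 44 in p57WT and was not tested. Of its 100-base windows, 61.6% also occur in the read-through gene Gm20427.

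Libraries of one genotype differed across many of the 37 genes. p57KO 2 was the highest of the 5 knockouts for 21 of the 37 genes, and p57KO 1 was the lowest for 17. In p57WT, p57WT 1 was the highest for 17 genes and p57WT 5 the lowest for 16. Both p57KO 1 and p57KO 2 carry number 607, so the spread lay within that number as well as between numbers. Between numbers 608 and 607 within p57KO, 2 of the 28 tested genes were called, H2-Bl and Psmb8, beside 6.68% of all genes.

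The companion genes are 68 other genes of antigen processing. Of the 65 tested, 33 were called higher and 2 lower by edgeR, with a median log2 fold change of 0.83, against the 19.3% of all genes called higher and the 17.2% called lower. With the epithelial scaling, which moved the median of all genes to -1.39, 2 were called higher and 22 lower, against 2.22% and 65.1% of all genes. With the ribosomal RNA class as a term 5 were called higher and 1 lower, against 7.22% and 10.5% of all genes.

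In the standard proteasome and its activators, 11 of 17 genes were called higher, against 19.3% of all genes tested. The other 6 were not called, and the median log2 fold change of the 17 was 0.89. Psma4 rose by a log2 fold change of 1.15 (edgeR adjusted p = 0.003), and Psme2, a subunit of the interferon-inducible activator, by 0.90 (adjusted p = 0.00787). The standard catalytic subunit Psmb5 rose by 0.97 (adjusted p = 0.042), whereas Psmb6, at 0.49 (0.152), and Psmb7, at 0.55 (0.172), were not called.

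Of 7 listed chaperones and related genes of peptide loading, 5 were called higher, against 19.3% of all genes tested. Pdia3, which bridges the complex as a disulphide isomerase, averaged 919.5 ± 251.8 CPM in p57KO and 282 ± 40.6 CPM in p57WT (SD, n = 5 each; log2 fold change 1.71, SE 0.26, edgeR adjusted p = 0.000711). Hspa5 rose by 1.20, Tapbpl, a tapasin relative that edits peptides, by 1.21, Calr by 1.18 and Canx by 0.89. Pdia3, Hspa5, Calr and Canx are folding chaperones that also serve other secreted and membrane proteins. Of the loading genes described above, Erap1 was called higher, and Tap1, Tap2 and Tapbp were not called.

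Among genes that process peptides for class II, 7 of 10 were called higher, against 19.3% of all genes tested. Ctss, the cathepsin that cleaves the invariant chain, was at 363, 915, 78.7, 52.6 and 32.8 CPM in p57KO 1 to 5 and averaged 26.5 ± 22.3 CPM in p57WT (n = 5; log2 fold change 3.45, SE 0.88, edgeR adjusted p = 0.00929). Ifi30, a lysosomal thiol reductase induced by interferon-gamma, rose by 1.48 (adjusted p = 0.00112), and Ctsb by 1.57 (adjusted p = 0.0025). The knockouts of number 607 were the highest for Ctss, as they were for the pan-leukocyte markers.

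Of 11 listed transcription factors of the MHC promoters, 2 were called higher, a share near the 19.3% of all genes. Irf8, with a log2 fold change of 0.63, and Irf1, with 0.83, were called higher (edgeR adjusted p = 0.0461 and 0.0444) and the other 9 were not called. The factors that bind the X box, Rfx5, Rfxap and Rfxank, had log2 fold changes of -0.57, 0.23 and 0.11, and those that bind the Y box, Nfya, Nfyb and Nfyc, of -1.02, 0.55 and 0.46. None of these 6 was called.

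Genes of the interferon-gamma pathway diverged. The receptor chains Ifngr1 and Ifngr2 rose by 1.60 and 0.80 (edgeR adjusted p = 0.00859 and 0.0184), and the chemokine Cxcl10 rose by 2.94 (adjusted p = 0.0177). Jak2 had a log2 fold change of -0.26, and Gbp2, an interferon target, fell by 1.46 (adjusted p = 0.0364). The call thus went both ways among interferon-inducible genes: Psmb8, Psmb9, Psmb10 and Cxcl10 were higher, Gbp2 was lower, and Tap1 was not called.

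Of the class I relatives outside the complex, Fcgrt, the neonatal Fc receptor chain that also pairs with B2m, rose to 203 ± 87.3 CPM in p57KO, against 78.2 ± 20.1 CPM in p57WT (SD, n = 5 each; log2 fold change 1.38, SE 0.33, edgeR adjusted p = 0.00655). Mr1, which presents microbial riboflavin metabolites, fell to 6.22 ± 3.89 CPM in p57KO, against 26.4 ± 12.2 CPM in p57WT (adjusted p = 0.00775 with a log2 fold change of -2.08, SE 0.51), with no overlap. Hfe, at 0.78 (adjusted p = 0.142), was not called.

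Among costimulatory molecules of antigen-presenting cells, 3 of 5 tested were called higher, against 19.3% of all genes tested. Cd86 was at 7.83, 57.2, 1.68, 1.80 and 1.92 CPM in p57KO 1 to 5 and averaged 0.379 ± 0.424 CPM in p57WT (n = 5; log2 fold change 5.34, SE 1.32, edgeR adjusted p = 0.00805). Cd83 rose by 4.09 (adjusted p = 0.00288) and Cd40 by 1.87 (adjusted p = 0.0379). Cd86 followed the pan-leukocyte markers in being highest in p57KO 2 and p57KO 1. Of the cytosolic peptidases, Lap3 rose by 1.01 (adjusted p = 0.00424), and Blmh, Tpp2 and Thop1 were not called.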

How the data were processed

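Per the file headers, the authors deposited 1 table of raw counts, whole numbers of reads for each gene in each of 10 libraries. Beside them stood a normalized signal (each count over a size factor) and the authors' own comparison as log2 fold changes with standard errors, a Wald score, p-values and adjusted p-values, again per the file headers. STAR 2.6.1d, Cufflinks 2.2.1, HTSeq 1.0, DESeq2 1.22.2 and build GRCm38 (mm10) are named in the submitters' processing notes; the sources used here do not give the strand setting. The lowest mean normalized count listed was 3.00, and genes under it were not analysed here. GENCODE M21, which matched 20558 identifiers, gave coordinates and restored symbols that a spreadsheet had turned into dates.

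The counts were tested with edgeR 4.0.16 in R 4.3.3 (quasi-likelihood, TMM scaling, the expression filter, genotype as the only term). In all 3869 genes fell under the filter, p-values were adjusted by Benjamini-Hochberg over the remaining 16710, and a call means an adjusted p below 0.05. Adjusted p-values are edgeR's unless another tool is named. Alternatives were DESeq2 size factors, scaling by 18 epithelial markers, no filter, the DESeq2 1.42.0 Wald test, limma 3.58.1 voom, each library left out, and terms for label number, replicate number and ribosomal RNA class (above or below 5% of counts). The script was tested on simulated data. The genes and lists were chosen with earlier results of these data known. Values in every library are given for 17 set genes and for the 4 others with the smallest p, and up to 6 companion genes of a list are named by p; a few beyond these were named after their values were seen. Each library was taken as a separate embryo, which no label identifies; otherwise p-values measure only the spread between these samples, which may be technical. No pair of libraries was alike to within sampling noise. Intervals (exact, 95%) and floors cover counting error only. Promoters came from RefSeq. Some results are not reported here.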

Additional observations from a re-analysis of the deposited data

Results flagged for a closer look

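In 10 of the 74 groups of 5 libraries examined, 1 library stood apart from the other 4 by a gap above Dixon's 95% critical value; chance alone gives about 1 in 20. In p57KO 2 these were H2-D1 at 1178.2 CPM with the next knockout at 306, Tap1 at 13.5 with the next at 7.07, Tap2 at 11.9 with the next at 5.16, H2-M3 at 33.6 with the next at 11.1, and Psmb8 at 83.6 with the next at 23.5 CPM. In p57WT 2 these were Tapbp at 58.9 CPM with the next wild type at 41.6 and Cd1d1 at 14.8 with the next at 7.74. In p57WT 1 these were H2-M2 at 1.25 CPM, from 11 counts, and H2-DMb1 at 1.14 CPM, from 10 counts. In p57KO 5 it was Ciita at 0.783 CPM, from 9 counts, with the next knockout at 0.0860 CPM. p57KO 2 also held the most counts of pan-leukocyte markers, 5006 CPM against 125 to 787 CPM in the other knockouts, and the part of those cells in its high values was not tested.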

How the results depend on the processing

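Of 560 values of the 28 tested genes under 20 alternatives, 431 kept their direction and side of the threshold, 80 lost their call, 15 gained one and 34 changed sign; the cause was not tested. With the epithelial scaling 11257 of all genes were called (371 higher and 10886 lower), against 6107 (3226 higher and 2881 lower) with TMM, and 8 of the antigen presentation genes, against 17. It turned B2m to -0.69, Erap1 to -0.57, Tap1 to -1.41, Tap2 to -0.80, Tapbp to -1.20, H2-Q4 to -1.27, H2-T24 to -0.81, Psmb9 to -0.18 and Psmb10 to -0.24. Within label number 607, and with label number as a term, which is the same contrast, 1009 genes, 1 antigen presentation gene and 2 companion genes were called; Erap1 was -0.06, H2-Bl -2.43, H2-Q4 -0.69, H2-Q7 -0.26 and H2-T22 0.22. With ribosomal RNA class as a term, 2959 genes, 6 antigen presentation genes and 6 companion genes were called, and Tapbp was -0.10.

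Leaving out each library in turn gave 4763 to 7141 genes called, 14 to 20 antigen presentation genes and 23 to 40 companion genes (23 without p57WT 4, against 35). The log2 fold changes of 4 genes crossed 0 in these fits, Tap1 (-0.18 to 0.17), Cd1d1 (-0.32 to 0.16), H2-Q4 (-0.17 to 0.34) and H2-T22 (-0.23 to 0.13). Without p57KO 1 and p57KO 2, Tap1 was -0.15, Cd1d1 0.11 and H2-T24 -0.17, and without the filter H2-T22 was 0.00. DESeq2 called 23 antigen presentation genes, 1 of them lower.

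The replicate numbers do not pair the libraries: the correlations of same-numbered deviations were 0.24, 0.07, -0.16, -0.17 and 0.19, and only number 1 correlated best with its own number. With the replicate block 5804 genes and 14 antigen presentation genes were called, all 14 among the 17, and 29 companion genes. Depth limits the 9 genes under the filter, for which 3 counts equal up to 0.392 CPM.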
